A study of Homo sapiens with 4 samples.

Results

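The regions described here were promoter peaks of Flag-tagged FLI1 that were called in control cells and overlapped no peak called after interferon gamma (IFN-γ). They were selected on the positions of called peaks in both lists: a control peak had to reach to within 3 kb of the transcription start site (TSS) of any annotated transcript and to overlap no IFN-γ peak by 1 bp or more. Of 17536 control peaks at promoters, 3596 met this rule, and they are called control-only promoter peaks. That share, 20.5%, stood beside 22.5% for the whole control list of 30819 peaks, of which 6924 overlapped no IFN-γ peak. In the other direction, 4311 of 18627 promoter peaks of the IFN-γ list, or 23.1%, overlapped no control peak. The rule used both lists, so the counts, the strengths of the peaks and the absence of an IFN-γ peak are given as descriptions with no test.

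The peaks came from chromatin immunoprecipitation sequencing (ChIP-seq) of HK1, an established nasopharyngeal carcinoma cell line, with an antibody to the Flag tag. Both groups had the genotype FLI1 overexpression, and they differed in treatment: the control cells received PBS and the others IFN-γ, each for 24 h. The signal is therefore that of an overexpressed tagged protein and not of endogenous FLI1. There was 1 library per condition, so the treatment could not be tested, and a difference between the lists cannot be told apart from a difference between 2 libraries.

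FLI1 belongs to the ETS family of transcription factors, which bind DNA around a GGAA core, and it is best known from blood and endothelial cells and from fusion proteins in Ewing sarcoma. ETS factors commonly bind near the start sites of genes, many of which lie in CpG islands, stretches rich in G and C that also hold GC boxes, the sites of SP and KLF factors. IFN-γ acts through JAK kinases and STAT factors, which bind a motif called GAS, and then through interferon regulatory factors, which bind a motif called ISRE.

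The sequences below let the control-only promoter peaks be read beside shared ones. Each is a stretch of the plus strand of GRCh38 centred on the peak's summit, in lower case, with the ETS core GGAA (TTCC on the other strand) and the octamers CCGGAAGT and CAGGAAGT in capitals. The octamers start with the bases that FLI1 is known to prefer, and each holds the core. The opening 4 were among the strongest control-only peaks at promoters with no IFN-γ peak at all and were taken from those without an octamer.
CSNK2A2 (chr16:58198130-58198230): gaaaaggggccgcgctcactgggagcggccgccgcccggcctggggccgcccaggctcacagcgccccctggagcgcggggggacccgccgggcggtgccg
GINS2 (chr16:85688966-85689066): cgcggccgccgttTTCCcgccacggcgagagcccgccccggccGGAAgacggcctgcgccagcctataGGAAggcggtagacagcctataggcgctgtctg
TARS3 (chr15:101724289-101724389): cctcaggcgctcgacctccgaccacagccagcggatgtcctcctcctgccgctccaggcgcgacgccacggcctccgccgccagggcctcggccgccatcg
AP5S1 (chr20:3820182-3820282): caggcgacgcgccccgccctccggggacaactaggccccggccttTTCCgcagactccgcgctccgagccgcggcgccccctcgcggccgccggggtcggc

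Control-only peaks with an octamer close to the summit were the exception. The strongest with an octamer in a stretch of that length lay at WDR76, which encodes a WD repeat protein, and at FMR1, TNC and BAX. FMR1 encodes an RNA-binding protein of neurons, TNC the matrix protein tenascin-C and BAX a protein that permeabilises the mitochondrial outer membrane in apoptosis.
WDR76 (chr15:43826876-43826976): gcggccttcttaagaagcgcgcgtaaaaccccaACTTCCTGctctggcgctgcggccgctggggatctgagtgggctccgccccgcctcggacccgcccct
FMR1 (chrX:147911910-147912010): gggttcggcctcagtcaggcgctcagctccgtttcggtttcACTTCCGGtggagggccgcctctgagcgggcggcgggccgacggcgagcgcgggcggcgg
TNC (chr9:115058287-115058387): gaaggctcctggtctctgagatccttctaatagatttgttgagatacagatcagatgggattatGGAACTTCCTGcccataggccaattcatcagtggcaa
BAX (chr19:48955173-48955273): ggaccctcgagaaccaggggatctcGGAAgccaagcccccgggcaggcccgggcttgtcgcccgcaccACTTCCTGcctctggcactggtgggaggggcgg

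For comparison, the strongest shared promoter peaks with an octamer that close were those of CHAMP1, a kinetochore-attachment protein, KDM5A, a histone demethylase, and FAM50B.
CHAMP1 (chr13:114314275-114314375): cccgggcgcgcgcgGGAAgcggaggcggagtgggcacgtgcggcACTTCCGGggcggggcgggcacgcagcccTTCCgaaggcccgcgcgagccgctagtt
KDM5A (chr12:389279-389379): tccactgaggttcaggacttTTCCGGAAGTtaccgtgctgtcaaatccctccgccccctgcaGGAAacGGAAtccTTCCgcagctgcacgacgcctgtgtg
FAM50B (chr6:3849263-3849363): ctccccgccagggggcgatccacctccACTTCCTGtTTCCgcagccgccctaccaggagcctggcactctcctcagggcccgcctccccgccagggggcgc

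Their pileups, the numbers of overlapping fragments at the summit, were 374, 373 and 315 in the control library. The 4 octamer-bearing control-only peaks had far fewer, with 25 fragments at WDR76, 23 at FMR1, 18 at TNC and 16 at BAX. The 4 peaks without an octamer had 27 to 30 fragments. The genes in these sequence sets were chosen by strength and by the presence or absence of an octamer, after their values were seen. The shared peaks shown were all picked for holding an octamer. In stretches of that length an octamer was present in 2.92% of control-only and 12.9% of shared promoter peaks. Most peaks of both sets thus held none.

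Control-only promoter peaks were weak members of the control list. Their median fold enrichment over the local background was 4.87 (lower and upper quartile 4.20 and 6.12), against 9.25 for the 13940 shared control promoter peaks. The median −log10 p was 7.51 (5.76 to 9.92) against 19.2, and the median width 342 bp against 673 bp. In fragments, the median summit pileup was 11 (9 to 14) in control-only peaks and 22 in shared peaks. Only 523 control-only peaks, or 14.5%, ranked in the stronger 50% of the control list, where 71.6% of the shared peaks did, and 1 control-only peak ranked within the top 10%. Because strength decides what is called, a set of 2375 shared promoter peaks between the same lower and upper quartile of −log10 p is used below as a comparison of similar strength. Its median −log10 p was 7.87.

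The deeper IFN-γ list still could have missed a sizeable signal at these sites. The lowest background in the lists was 1.06 fragments in the control and 1.54 in the IFN-γ library, and their ratio of 1.46 was taken as the relative depth. If the background scaled with depth, the largest IFN-γ pileup that would have stayed below the weakest called peak was a median of 7 fragments. That was 0.458 (0.366 to 0.534) of the depth-scaled control pileup. It was under 0.5 for 2292 control-only peaks (63.7%) and under 0.25 for 161 (4.48%). For most control-only peaks the absence of a call therefore leaves room for an IFN-γ pileup of more than 0.25 of the scaled control pileup. At shared promoter peaks the IFN-γ background was a median 1.23 times the scaled control background, and with the background raised by that ratio the median limit was 0.534.

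The strongest control-only peaks lay far above that limit. The top peak, at the 5.8S ribosomal RNA gene RNA5-8SN1 on chromosome 21 (8442239 to 8442509), had 74 fragments, a fold enrichment of 13.2 and a −log10 p of 61.1. A neighbour at the long noncoding RNA ENSG00000281181 (8438614 to 8438910) had 36 fragments and a fold of 18.0. The nearest IFN-γ peak, 580 bp from the former, had 37 fragments. Both lie in ribosomal DNA, which exists in many copies, and how uniquely reads map there was not tested. The same holds for ANKRD36 on chromosome 2 (33 fragments, fold 16.5) and ANKRD18DP on chromosome 3 (29 fragments, fold 14.6), which belong to families of near-identical ankyrin repeat genes.

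Among the other genes whose promoters held no IFN-γ peak, CSNK2A2, a catalytic subunit of the kinase CK2, led with 30 fragments and a fold of 14.0 at chromosome 16, 58198012 to 58198286. Its summit lay 74 bp upstream of the TSS, and the closest IFN-γ peak was 14583 bp away. GINS2, a subunit of the replicative helicase, had 30 fragments with a fold of 13.6 at chromosome 16, 85688799 to 85689257. TARS3, a threonyl-tRNA synthetase, had 30 fragments with a fold of 13.2 at chromosome 15, 101723916 to 101724801. For these 3 genes the largest uncalled IFN-γ pileup was 7 fragments against a depth-scaled control pileup of 43.7. NDUFC2-KCTD14 is a readthrough gene that starts with NDUFC2, a subunit of respiratory complex I, and had 26 fragments with a fold of 13.1. AP5S1, an adaptor protein subunit, had 27 fragments with a −log10 p of 26.5, and ROR1, a receptor for Wnt5a, had 25 fragments with a fold of 12.7. Each of these summits lay within 500 bp of a TSS.

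The strongest control-only peaks at promoters that did keep an IFN-γ peak had 25 to 40 fragments. IGF2, an imprinted growth factor gene, had 40 fragments and a fold of 17.5 in an intron at chromosome 11, 2156315 to 2156708, and the nearest IFN-γ peak was 9484 bp away. The 2 IFN-γ peaks at its promoters lay at other TSSs, with 15 fragments each. The long noncoding RNA ENSG00000290548 had 32 fragments with a fold of 16.1, and ARVCF, a catenin, had 36 fragments with a fold of 11.1. CHAF1A encodes a subunit of the chromatin assembly factor CAF-1 and had a control-only peak beside a stronger shared one. The shared control peak (4399286 to 4400863) had 86 fragments and met an IFN-γ peak of 106 fragments, while the control-only peak (4402450 to 4403245) had 27 fragments and lay 192 bp from an IFN-γ peak of 15 fragments. CIC, a transcriptional repressor, had 27 fragments with a fold of 13.6. DBP, a circadian transcription factor, had 28 fragments with a fold of 12.4. MAPKAPK2, a stress-activated kinase, had 26 with a fold of 12.4, and EPB41, a membrane skeleton protein, had 25 with a fold of 12.7.

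At ASAH1, which encodes acid ceramidase, neither of the 2 control peaks overlapped an IFN-γ peak. The stronger one on chromosome 8 (18084754 to 18085121) had 29 fragments, a summit at the TSS itself and an octamer within 100 bp. The other had 9 fragments. The single IFN-γ peak of that promoter (18083950 to 18084362) had 12 fragments and lay 391 bp away.

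**Figure D1:**
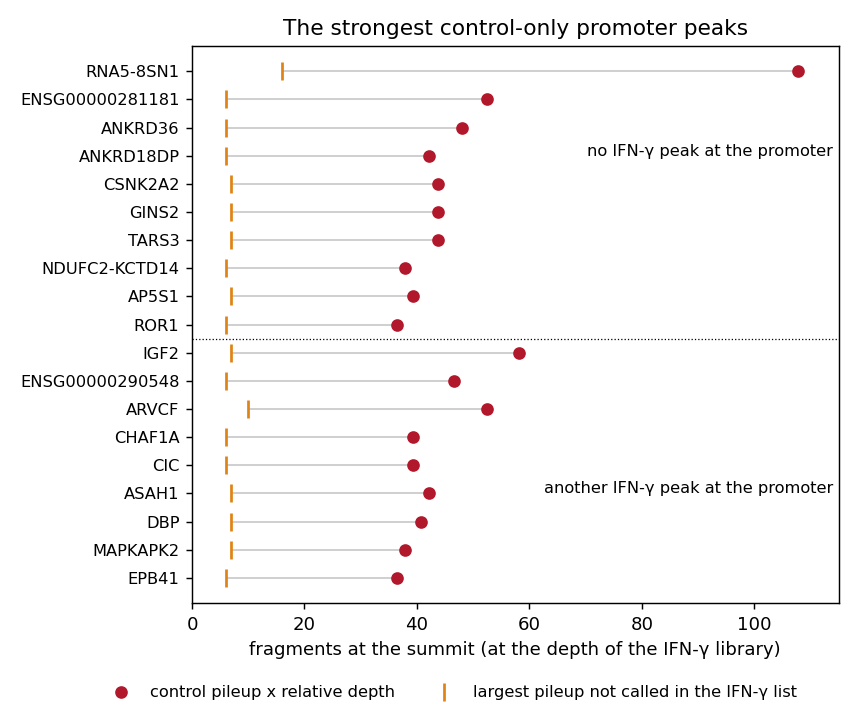
The strongest control-only promoter peaks by −log10 p, at promoters without (above the dotted line) and with (below it) another IFN-γ peak, with fragments at the summit on the x axis. Red points are control pileups multiplied by the relative depth of 1.46, and orange ticks are the largest pileup that would not have been called in the IFN-γ list. The scaled pileups ran from 36.4 fragments at ROR1 to 108 at RNA5-8SN1, and the ticks from 6 to 16.

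More than 50% of the control-only peaks lay at promoters that kept an IFN-γ peak elsewhere. Counting the 3 kb either side of every TSS of the nearest gene, 1998 of 3596 control-only peaks (55.6%, 53.9% to 57.2%) had an IFN-γ peak at the same promoter, and 1598 had none. For comparison, 57.0% of control-only peaks had another control peak at the same promoter. Ranges after shares are exact Clopper-Pearson 95% intervals and cover counting error only. In 1702 cases (47.3%) the promoter kept another control peak that was itself shared, and in 296 (8.23%) the IFN-γ peaks were not shared. Another control peak at the promoter was stronger than the control-only peak in 1586 of the 1998 cases, or 79.4%. Some TSSs of a gene lie far apart, and within 3 kb of the nearest TSS alone the share with an IFN-γ peak was 37.2%. The nearest IFN-γ peak was a median 6552.5 bp away, within 500 bp of 14.8% of control-only peaks and within 1 kb of 23.4%. The nearest other control peak was a median 6164.5 bp away. For 1521 control-only peaks (42.3%) there was no IFN-γ peak within 10 kb.

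Seen by gene, 1182 of 12407 protein-coding genes with a control promoter peak had no IFN-γ promoter peak, which is 9.53% (9.02% to 10.1%). In the reverse direction it was 742 of 11967, or 6.20% (5.77% to 6.65%). For long noncoding RNA genes the order was the other way around, with 633 of 4997 (12.7%) of those with a control promoter peak lacking an IFN-γ peak and 777 of 5141 (15.1%) lacking a control peak. At this level the promoter windows of neighbouring genes overlap, so a peak can count for several genes.

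Promoters that kept no IFN-γ peak differed from those that kept a peak. Their control-only peaks lay within 1 kb of a TSS in 78.3% of cases against 69.4%, a difference of 8.93 percentage points (Newcombe 95% interval 6.05 to 11.8). They lay in introns in 27.7% against 46.8%. Protein-coding genes were nearest to 67.3% of them against 82.3%, a difference of -15.0 points (-17.9 to -12.2), and pseudogenes to 5.51% against 1.25%. Genes with more TSSs have more windows in which an IFN-γ peak can be found, and the part of TSS number in these differences was not tested. Peaks at promoters that kept none were somewhat stronger, with a median −log10 p of 7.76 against 6.74 and an upper quartile of 10.9 against 9.34. The median pileup was 11 fragments in both, and the part of strength in these differences was not tested.

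Most control-only peaks were near the start of the gene, but they were less concentrated there than shared peaks. The absolute distance from summit to TSS had a median of 288.5 bp (80 to 1087), against 126 bp in shared peaks. Within 100 bp of a TSS were 28.6% of control-only and 45.7% of shared peaks, a difference of -17.1 points (-18.8 to -15.4), and within 1 kb 73.4% and 82.6%, a difference of -9.17 (-10.8 to -7.61). The interval of the latter included 0 at q-values under 1e-05, with summits within 100 bp and with 1 kb windows. Against shared peaks of similar strength the intervals of these differences included 0: 29.4% of those lay within 100 bp and 71.9% within 1 kb, with differences of -0.872 (-3.24 to 1.47) and 1.51 points (-0.788 to 3.84). Downstream of the TSS were 53.7% of the control-only summits. In an exon lay 33.1%, in an intron 38.3%, and upstream of the gene 24.9%. A TSS on the opposite strand within 1 kb, as at divergent promoters, was found for 14.7% of control-only peaks, 22.6% of shared peaks and 14.7% of shared peaks of similar strength.

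**Figure D2:**
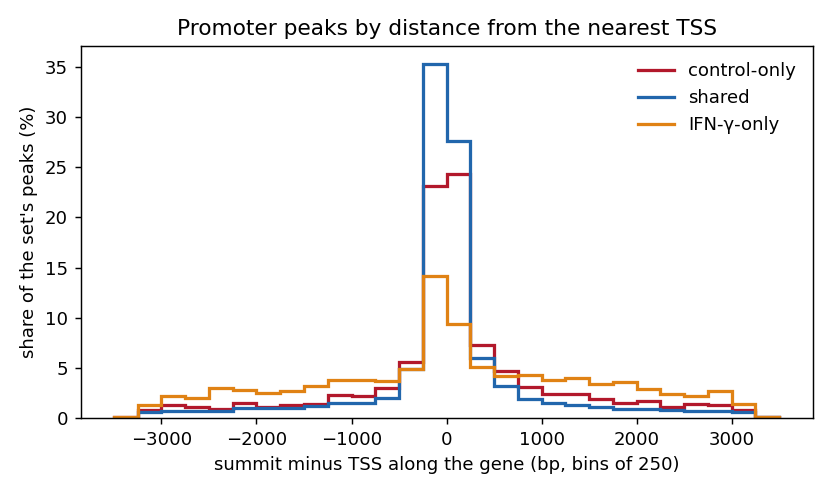
Distance of summits from the nearest TSS along the direction of the gene, in bins of 250 bp, as a share of control-only (red), shared (blue) and IFN-γ-only (orange) promoter peaks. All 3 sets peaked at the TSS, and 73.4% of control-only, 82.6% of shared and 49.5% of IFN-γ-only summits lay within 1 kb of it.

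Some peaks lay next to the limits of the rule. Just inside 3 kb were the peaks of PTPN3, a tyrosine phosphatase, at 2998 bp, and of ENSG00000231336 and SYT8 at 2996 bp, and just outside those of SMIM1 at 3001 bp, EIF3A at 3011 bp and ENSG00000267125 at 3013 bp. The control-only peak of SLC36A4 missed an IFN-γ peak by a gap of 1 bp and those of SLC4A11 and VCAN by 3 bp, while shared peaks of MMP15, ADGRE5 and TENT4B overlapped by 2, 3 and 5 bp. These peaks had 7 to 23 fragments at the summit. SLC36A4, with 18 fragments and a −log10 p of 17.1, and ENSG00000267125, with 23 fragments, lay above the control-only upper quartile of 14 fragments.

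By gene class, 75.6% of control-only peaks (74.2% to 77.0%) were nearest to a protein-coding gene, 17.9% to a long noncoding RNA, 3.14% to a pseudogene and 1.22% to a microRNA gene. Shared promoter peaks had 77.6% protein-coding, a difference of -2.01 points (-3.60 to -0.470), but shared peaks of similar strength had 72.0%, a difference of 3.61 points in the other direction (1.34 to 5.91). The difference from all shared peaks also changed sign at q-values under 1e-05 and with summits within 100 bp, with intervals that included 0. IFN-γ-only promoter peaks were nearest to a protein-coding gene less often, by 15.6 points (13.6 to 17.7), and 9.30% of them were nearest to a pseudogene. The control-only peaks fell at 3210 genes, of which 2882 had 1, 283 had 2 and 45 had 3 or more.

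The genes with the most control-only peaks were chosen after their values were seen. LTBP3, which binds latent TGF-β, had 6 over several TSSs, with 8 to 15 fragments each, and COL9A3, a collagen chain, and SBNO2 had 5 each. All 3 kept an IFN-γ peak.

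Gene lists were read against the 2374 of 12407 protein-coding genes with a control promoter peak that were nearest to a control-only peak, a background of 19.1%, and against 9.53% for genes with a control promoter peak and no IFN-γ promoter peak. Of the IFN-γ response list, 31 genes had a control promoter peak and 1 had a control-only peak (3.23%, 0.0816% to 16.7%). It was SOCS3, an inhibitor of JAK and STAT signalling, whose peak lay 2656 bp downstream of the TSS with 17 fragments. Its main control peak, with 20 fragments, was shared with an IFN-γ peak of 14 fragments. TAP2, which transports peptides for antigen presentation, was the list's one gene with a control promoter peak and no IFN-γ promoter peak, through a peak nearest to another gene. Of the 35 genes of the list with an IFN-γ promoter peak, 5 had no control promoter peak. The background in that direction was 742 of 11967 protein-coding genes, or 6.20%.

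Among chromatin modifiers 16 of 92 genes had a control-only peak (17.4%), and 6 had a control but no IFN-γ promoter peak: BRD3, EZH1, KAT2A, KMT2C, PRMT5 and SUZ12. BRD3, which reads acetylated histones, had 28 fragments with a fold of 11.1 at 128 bp from the TSS and a further control-only peak of 22 fragments. The nearest IFN-γ peak was 41104 bp away. KMT2C, a histone H3 lysine methyltransferase, had 16 fragments with a fold of 8.23. CREBBP, the gene of the acetyltransferase CBP that the study followed, had 2 control peaks. The weaker one (chromosome 16, 3880014 to 3880249) had 11 fragments with a fold of 5.45 and was control-only. The other (3880677 to 3881019) had 21 fragments and was shared with an IFN-γ peak of 13 fragments.

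Transcription factor genes gave mixed counts. In the ETS family 5 of 20 genes had a control-only peak, and ETV2, a regulator of endothelial fate, had 25 and 13 fragments in 2 such peaks with no IFN-γ peak at its promoter. ERF, an ETS repressor, had 18 fragments and kept an IFN-γ peak. Of 18 AP-1 genes 4 had a control-only peak, FOSB, JUND, MAFG and MAFK, and 0 lacked an IFN-γ promoter peak. HOX genes had 8 of 26 (30.8%, 14.3% to 51.8%), and zinc finger genes 54 of 398 (13.6%, 10.4% to 17.3%). ZNF44 had 22 fragments with a fold of 10.9 and kept none.

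The squamous lineage list had the highest share of the 18 lists, 8 of 18 genes (44.4%, 21.5% to 69.2%), and is singled out by that value. The 8 genes were CDH1, KRT16, KRT17, KRT19, LAMA3, LAMB3, NOTCH3 and PAX9. KRT16, LAMB3 and NOTCH3 had no IFN-γ promoter peak, a share of 16.7% (3.58% to 41.4%) whose interval included the 9.53% background. LAMA3 and LAMB3 encode chains of laminin-332 and had 16 and 12 fragments. KRT16, a keratin of stressed epithelium, had 10, and its sequence is close to that of KRT17. The counts are small, and the lists were read with no test.

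Of the housekeeping lists, ribosomal proteins, splicing factors and mitochondrial ribosomal proteins had shares whose intervals lay below the 19.1% background. Ribosomal protein genes had 4 of 82 (4.88%), splicing factors 2 of 48 (4.17%, 0.509% to 14.3%) and mitochondrial ribosomal proteins 5 of 73 (6.85%, 2.26% to 15.3%). The intervals of the others included the background: proteasome genes had 5 of 47 (10.6%), tRNA synthetases 5 of 39 (12.8%), respiratory chain genes 10 of 72 (13.9%), DNA repair genes 7 of 51 (13.7%) and replication-dependent histones 7 of 43 (16.3%). Against the 9.53% background of genes with no IFN-γ promoter peak, proteasome genes had 10.6% and replication-dependent histones 11.6%, and the other housekeeping lists had 3.66% to 6.85%. RPL5, a protein of the large ribosomal subunit, had 18 fragments with no IFN-γ peak at its promoter. PSMA3, a proteasome subunit, had 17, and PSME1, a subunit of the proteasome activator that IFN-γ induces, had 10, both also with no IFN-γ promoter peak. Cell cycle genes had 5 of 43 (11.6%), with an interval that also included 19.1%, and 5 had a control but no IFN-γ promoter peak: BUB1, CCNB1, CCNE1, CDC25A and E2F1. E2F1, which drives entry into S phase, had 16 fragments, CDC25A, a CDK phosphatase, 16, and CCNE1, a cyclin, 12. Solute carriers (44 of 213, 20.7%) and TMEM genes (33 of 160, 20.6%) were near the background.

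In base composition the control-only peaks were close to all shared promoter peaks and richer in G and C than shared peaks of similar strength. G and C made up a median 65.2% (56.2% to 72.6%) of the bases within 100 bp of their summits, against 65.7% in shared peaks and 52.7% in windows 1 kb either side of them. The median over the start sites of MANE transcripts, 1 representative transcript per protein-coding gene, was 66.7%. Shared peaks of similar strength had 58.7% and IFN-γ-only promoter peaks 47.3%. At least 75% G and C was reached by 18.6% of control-only, 17.9% of shared, 9.35% of similar-strength and 1.16% of IFN-γ-only peaks. The difference from peaks of similar strength was 9.28 percentage points, with a lower bound of 7.53. Under 50% were 12.8%, 13.0%, 26.0% and 60.7%. Within the control-only peaks the GC content rose with strength, from a median of 60.9% at a −log10 p under 6 to 65.7% at 6 to 10, 69.7% at 10 to 20 and 74.1% at 20 or more.

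**Figure D3:**
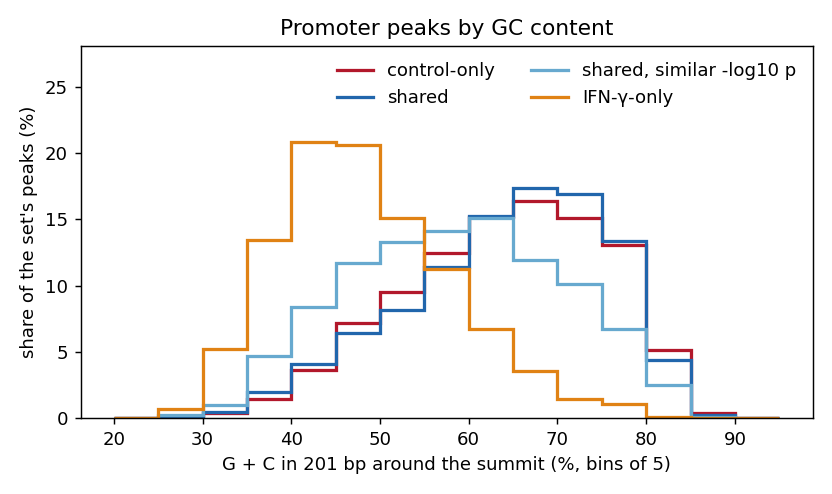
Share of promoter peaks by G and C within 100 bp of the summit, in bins of 5 percentage points, for control-only (red), shared (dark blue), shared of similar −log10 p (light blue) and IFN-γ-only (orange) peaks. The medians were 65.2%, 65.7%, 58.7% and 47.3%, so the control-only distribution lay over that of all shared peaks and to the right of shared peaks of its own strength.

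At equal strength, control peaks richer in G and C were missing from the IFN-γ list more often. For a −log10 p of 10 to 20 the control-only share was 6.64% (4.95% to 8.68%) under 50% GC and rose through 10.4%, 15.0% and 20.6% to 25.2% (20.2% to 30.7%) at 80% or more. Below 6 it rose from 50.5% to 78.9%, and from 6 to 10 it rose from 25.8% to 59.2%. Among the strongest peaks 0 of 365 under 50% GC were control-only (exact upper bound 1.01%), and 13 of 377 were at 80% or more (3.45%, 1.85% to 5.82%). Over all strengths together the share was 20.2% under 50%, 22.4% from 50% to 60%, 19.4% from 70% to 80% and 23.8% at 80% or more, with no steady rise. Strong peaks were also richer in G and C, with a median of 68.2% in shared peaks at a −log10 p of 20 or more against 55.2% under 6.

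A gradient with GC was also seen in the shared promoter peaks, where both libraries gave a called peak. A control peak entered these pairs only if it overlapped a called IFN-γ peak, and no peak of that list had under 7 fragments. Strength was not held fixed, and GC content rose with strength in shared peaks. The part of this selection in the gradient was not tested. The median ratio of IFN-γ pileup to depth-scaled control pileup was 1.37 under 50% GC, 1.15 from 50% to 60%, 0.893 from 60% to 70%, 0.717 from 70% to 80% and 0.642 at 80% or more, and 0.893 over all 13940 pairs. The background at those summits did not follow GC in that way, with median ratios of 1.11, 1.24, 1.27, 1.24 and 1.22. GC content thus moved with the difference between the 2 libraries at shared promoter peaks. The DNA libraries were amplified by PCR, and with 1 library per condition a GC effect of library preparation cannot be told apart from an effect of the treatment.

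FLI1 motifs were scarce in control-only peaks. Either octamer, on either strand, lay within 100 bp of 159 of 3596 summits, or 4.42% (3.77% to 5.15%). Shared promoter peaks had 15.8%, a difference of -11.3 points (-12.2 to -10.4), shared peaks of similar strength had 8.13%, a difference of -3.70 (-5.03 to -2.44), and IFN-γ-only promoter peaks had 10.9%. The windows 1 kb either side of control-only peaks had 1.49%. Over windows of the same length at the TSSs of all annotated genes 3.73% held an octamer, and over MANE TSSs 7.19%. Strength did not raise the share much within the control-only set, since it went from 3.83% at a −log10 p under 6 to 5.71% (1.58% to 14.0%) at 20 or more, where shared peaks went from 8.15% to 23.2%.

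The octamers split unevenly. CCGGAAGT, the form found at many CpG island promoters, was in 24 control-only windows (0.667%), against 8.91% of shared and 1.47% of similar-strength peaks. CAGGAAGT was in 135 (3.75%), against 7.21% and 6.69%. Where an octamer was present its centre lay a median 29.5 bp from the control-only summit, against 19.5 bp in shared peaks. The core GGAA alone was in 88.0% of control-only windows, 96.0% of shared windows, 93.4% of similar-strength windows and 83.8% of flanks. A run of 4 GGAA units, known as a site of FLI1 fusion proteins, was in 0.501% of control-only peaks, 2.60% of shared peaks and 5.31% of shared peaks of similar strength.

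The octamer share was below that of shared peaks in every GC class. Under 50% GC it was 8.93% (6.49% to 11.9%) in control-only and 16.2% in shared peaks, and from 50% to 60% it was 8.37% and 19.7%. From 60% to 70% the shares were 3.70% and 18.2%, and from 70% to 80% they were 0.986% and 11.9%. At 80% or more 0 of 200 control-only windows had an octamer, with an upper bound of 1.83%, against 5.63% of shared windows. Strength was not held fixed within these classes. In shared peaks the octamer share rose from 8.15% at a −log10 p under 6 to 23.2% at 20 or more. The part of strength in the differences by GC class was not tested.

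Of the other motifs, the GC box and the E-box were more frequent in control-only peaks than in shared peaks of similar strength, and AP-1, ISRE and GAS motifs less frequent. The GC box GGGCGG was in 44.1% (42.5% to 45.7%) of control-only windows, against 33.4% in shared peaks of similar strength, a difference of 10.7 points (8.16 to 13.2), 48.7% in all shared peaks, 15.9% in flanks and 54.5% at MANE TSSs. It was in 50.9% where the promoter kept no IFN-γ peak and in 38.7% where it kept a peak. The E-box CACGTG was in 5.95% against 4.21% at similar strength, a difference of 1.74 points (0.596 to 2.84), and in 6.15% of all shared peaks, a difference of -0.197 (-1.03 to 0.711). The AP-1 site TGACTCA or TGAGTCA was in 7.09% against 11.4%, a difference of -4.32 points (-5.88 to -2.81), although the flanks had 3.17%. The ISRE was in 1.67% against 4.80%, with 2.09% in the flanks, and the GAS motif TTCNNNGAA in 3.98% against 6.32%, with 5.02% in the flanks. In all shared peaks these motifs were in 8.47%, 2.69% and 4.56%, and the interval of the difference for GAS included 0. IFN-γ-only promoter peaks held an ISRE in 9.23% and an AP-1 site in 17.6%. The CCAAT box CCAAT was in 15.8% against 18.3%, and the YY1 motif AAGATGGC in 1.42% against 1.47%. Shared peaks of similar strength had a median GC content of 58.7%, against 65.2% in control-only peaks. The part of base composition in these motif differences was not tested. A match gives letters in a window and does not show that the factor was bound.

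**Figure D4:**
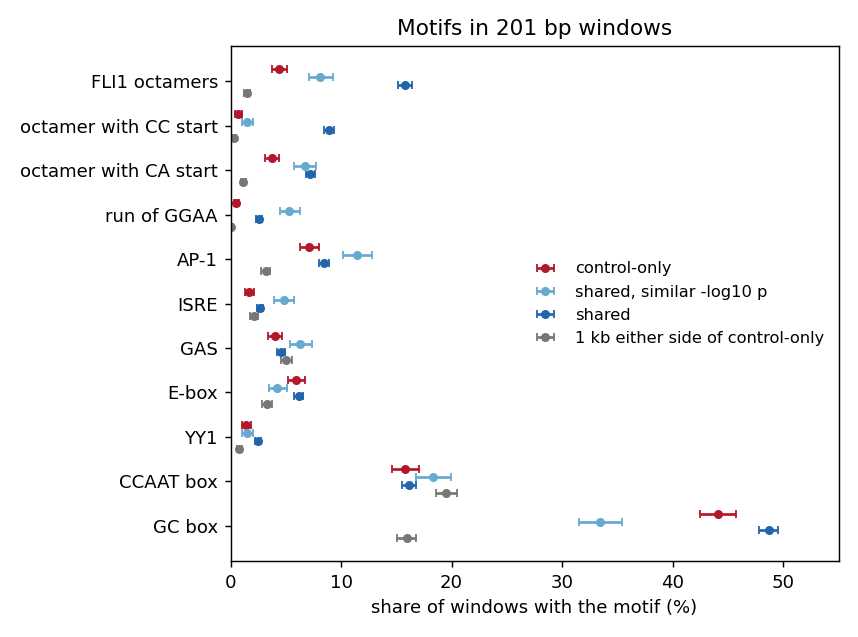
Share of windows of 100 bp either side of the summit with each motif, with exact 95% intervals, for control-only promoter peaks (red), shared peaks of similar −log10 p (light blue), all shared promoter peaks (dark blue) and windows 1 kb either side of control-only peaks (grey). Control-only peaks held an octamer in 4.42% of windows against 8.13% and 15.8% in the sets of shared peaks, and a GC box in 44.1% against 33.4% and 48.7%.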

How the data were processed

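Flag ChIP-seq was analysed in HK1 cells overexpressing Flag-tagged FLI1, with 1 control and 1 IFN-γ library. Input libraries are not analysed here. According to the methods and the submitters' processing notes, the authors used cutadapt 1.18 for trimming, Bowtie2 2.3.4.1 for alignment to GRCh38 and Picard for duplicate removal, and called peaks per library in MACS2 2.1.2 at a p-value cutoff of 0.01. In the deposited lists the lowest −log10 p was 3.52 and 3.46 and the lowest −log10 q 1.30 and 1.32, so the lists were cut more strictly than that p-value. Whether the input was used in calling is not stated. For each peak the deposited columns are fold enrichment, −log10 p-value, −log10 q-value and a display score, which the authors' caller derives from −log10 q and which was not used. Since fold is the pileup plus 1 over the background plus 1, and the p-value is a Poisson tail, whole-number pileups were solved from both (largest relative error 6.21e-06). Read totals are not given, so pileups set the precision.

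TSSs were those of 252798 transcripts of 62663 genes in GENCODE 44. Each peak was assigned to the nearest TSS. GC content and 18 motifs were taken from 100 bp either side of summits, on both strands for motifs. The octamers contain the GGAA core, and the longer motifs can overlap it. Shares have exact Clopper-Pearson intervals and their differences Newcombe intervals, at 95%, and peaks of 1 library are not replicates. Named genes were, by −log10 p, the 10 strongest control-only peaks at promoters with and the 10 without an IFN-γ peak, the 3 strongest in each of 18 gene lists, genes the study named for its ChIP-seq, and the 3 nearest each limit, of which those that matter are given and some are not reported here. The members and lists were chosen with earlier results of these data known. Overlap, TSS assignment, motif search and pileup recovery were tested on simulated data. The alternatives were other q-value cutoffs, list lengths, overlaps, windows, TSS sets, motifs and comparison sets. The computations were run in Python 3.11.15 (scipy 1.17.1, numpy 2.4.6, pysam 0.24.0 and pandas 2.3.3), with samtools 1.23.1 for the genome and matplotlib 3.10.9 for plots.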

Additional observations from a re-analysis of the deposited data

How the results depend on the processing

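The count of 3596 control-only promoter peaks moved most with the definition of overlap. It was 6509 with an overlap of at least 50% of each peak and 7111 with summits within 100 bp, and from 2700 to 5311 under the other alternatives. The share of promoters that kept an IFN-γ peak (55.6%) was 75.4% and 77.5% under those definitions, 41.5% at q-values under 1e-05, 45.5% with lists of equal length, 47.9% with gaps of up to 500 bp counted as shared, 44.6% with 1 kb windows, 60.6% with protein-coding TSSs only, 38.5% with 1 TSS per gene, 58.5% over any gene whose window was overlapped and 37.2% over the nearest TSS.

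The share within 1 kb of a TSS (73.4%) was 82.4% at q-values under 1e-05, 76.8% with equal lists, 77.5% with 50% overlap, 80.1% with summits within 100 bp, 95.8% with 1 kb windows, 75.7% with protein-coding TSSs and 69.3% with 1 TSS per gene. The difference from shared peaks (-9.17 points) was -1.37 (-2.97 to 0.164), -0.940 (-2.14 to 0.249) and -0.582 (-1.46 to 0.187) at q-values under 1e-05, with summits within 100 bp and with 1 kb windows. Beside shared peaks of similar strength the share stayed 73.4%, but the difference changed sign to 1.51 points. The protein-coding share (75.6%) was 78.5% at q-values under 1e-05, 77.9% with summits within 100 bp, 79.4% with 1 kb windows and 66.0% with 1 TSS per gene. Its difference from shared peaks (-2.01 points) was 0.426 (-1.30 to 2.09) and 1.22 (-0.0488 to 2.47) in the former 2 settings and -0.453 (-1.82 to 0.890) with equal lists, and beside peaks of similar strength the share stayed 75.6% with a difference of 3.61 points. Median −log10 p (7.51) was 10.5 at q-values under 1e-05, where the limit on an uncalled pileup (0.458) was 0.630. That limit was 0.801 with lists of equal length.

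The octamer share (4.42%) was 6.27% with 50% overlap, 3.45% with 1 kb windows and 2.92% within 50 bp of the summit, and it was below that of shared peaks under every alternative run. The core gave 88.0% and CCGGAAGT alone 0.667%. The median GC content ran from 64.5% to 69.7% over all alternatives. The limit with the background raised by 1.23 was added after seeing the data. The cause of these changes was not tested. No paired analysis was possible because there was 1 library per condition. Low pileups limit single peaks, and a peak missing from a list may be a weaker one.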

Other observations

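The control-only share of control promoter peaks differed between chromosomes. It was highest on chromosome 22, with 138 of 469 peaks (29.4%, 25.3% to 33.8%), followed by chromosome 16 with 24.6% (21.7% to 27.7%) and chromosome 19 with 24.2% (21.9% to 26.7%). It was lowest on chromosome 6, with 143 of 932 (15.3%, 13.1% to 17.8%). The median GC content of all control promoter peaks, shared and control-only together, was 66.7%, 67.2%, 65.7% and 64.2% on these 4 chromosomes. It was as high on chromosomes 4 and 13, at 66.7% and 67.2%, where the control-only shares were low, at 16.3% and 16.7%. Copy number in HK1 cells was not tested.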
